A study of Mus musculus with 4 samples.

Results

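The 10 genes described here encode transcription factors of the endothelium, the cell layer that lines blood vessels. They are the SoxF genes Sox7, Sox17 and Sox18, the ETS genes Erg, Ets1 and Fli1, the forkhead genes Foxf2 and Foxq1, the basic helix-loop-helix gene Tal1 and the zinc-finger gene Klf2. They were chosen by gene symbol, and all 10 were found among the 23278 genes of the table. RNA came from whole mouse retinas at postnatal day 10, and every mouse was injected into the peritoneum with 20 µg of 4HT (4-hydroxytamoxifen) at postnatal day 3. The background was mixed, with at least C57BL6 and 129. Each of the 4 genotypes has 1 library, made from a pool of 3 RNA batches with 4 to 8 retinas (2 to 4 mice) in each.

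The NdpKO stabilized library has the genotype NdpKO;Ctnnb1flex3/+;Pdgfb-CreER. It is a knockout of Ndp, which encodes the secreted ligand Norrin, and carries 1 Ctnnb1 allele that recombination turns into a stabilized beta-catenin. The recombinase is CreER under Pdgfb regulatory sequence, which is active in endothelial cells and is switched on by 4HT. The NdpKO library has the Ndp knockout with neither of the other alleles listed. The stabilized library has the genotype Ctnnb1flex3/+;Pdgfb-CreER with Ndp intact. The WT library is labelled with none of these changes. The labels list no CreER for NdpKO or WT, so stabilization and the presence of CreER cannot be told apart.

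Norrin binds Frizzled-4 on retinal endothelial cells and, with its co-receptors, keeps beta-catenin from being degraded. Beta-catenin then enters the nucleus and acts with TCF/LEF factors on genes that growing vessels and the blood-retina barrier need. SoxF and ETS factors bind the enhancers of many endothelial genes, and in mice the SoxF genes act in part redundantly in vessel growth. Foxf2 and Foxq1 are forkhead factors enriched in the vessels of the central nervous system, Tal1 acts in the specification of blood and endothelium, and Klf2 is induced by blood flow.

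Ndp was at 0.869 FPKM in NdpKO stabilized, 0.873 in NdpKO, 2.35 in stabilized and 2.98 FPKM in WT, where FPKM is a fragment count scaled by transcript length and library size. Xist was near 1.3 FPKM in both Ndp knockout libraries and above 130 FPKM in the other libraries, and the Y-linked Ddx3y had the opposite pattern, so Ndp genotype and sex cannot be told apart. The 8 retinal marker genes summed to 3715 to 4218 FPKM in the 4 libraries. Of these, only Rcvrn had deposited intervals that did not overlap, being lower in stabilized than in WT and in NdpKO stabilized than in NdpKO. The sources used here give no read totals. A single library per genotype leaves no spread between animals, and the intervals below are those the authors deposited for each FPKM, at a level that is not stated.

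All 10 genes were weakly detected, with means over the 4 libraries of 0.160 FPKM (Tal1) to 2.25 FPKM (Sox18). The deposited interval reached from 20.8% to 94.4% of the value to either side. Only Sox18 and Ets1 had a mean of at least 1 FPKM, the minimum for a call by ratio. Their log2 ratios were taken on FPKM plus a pseudocount of 0.5, which understates the differences of low genes. All 10 genes averaged 0.1 FPKM or more and are compared below by whether deposited intervals overlap. In WT, per transcript length, the order of levels was Sox18, Ets1, Klf2, Foxf2, Sox7, Fli1, Sox17, Foxq1, Erg and Tal1. The intervals of each neighbouring pair in that order overlapped.

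**Figure D1:**
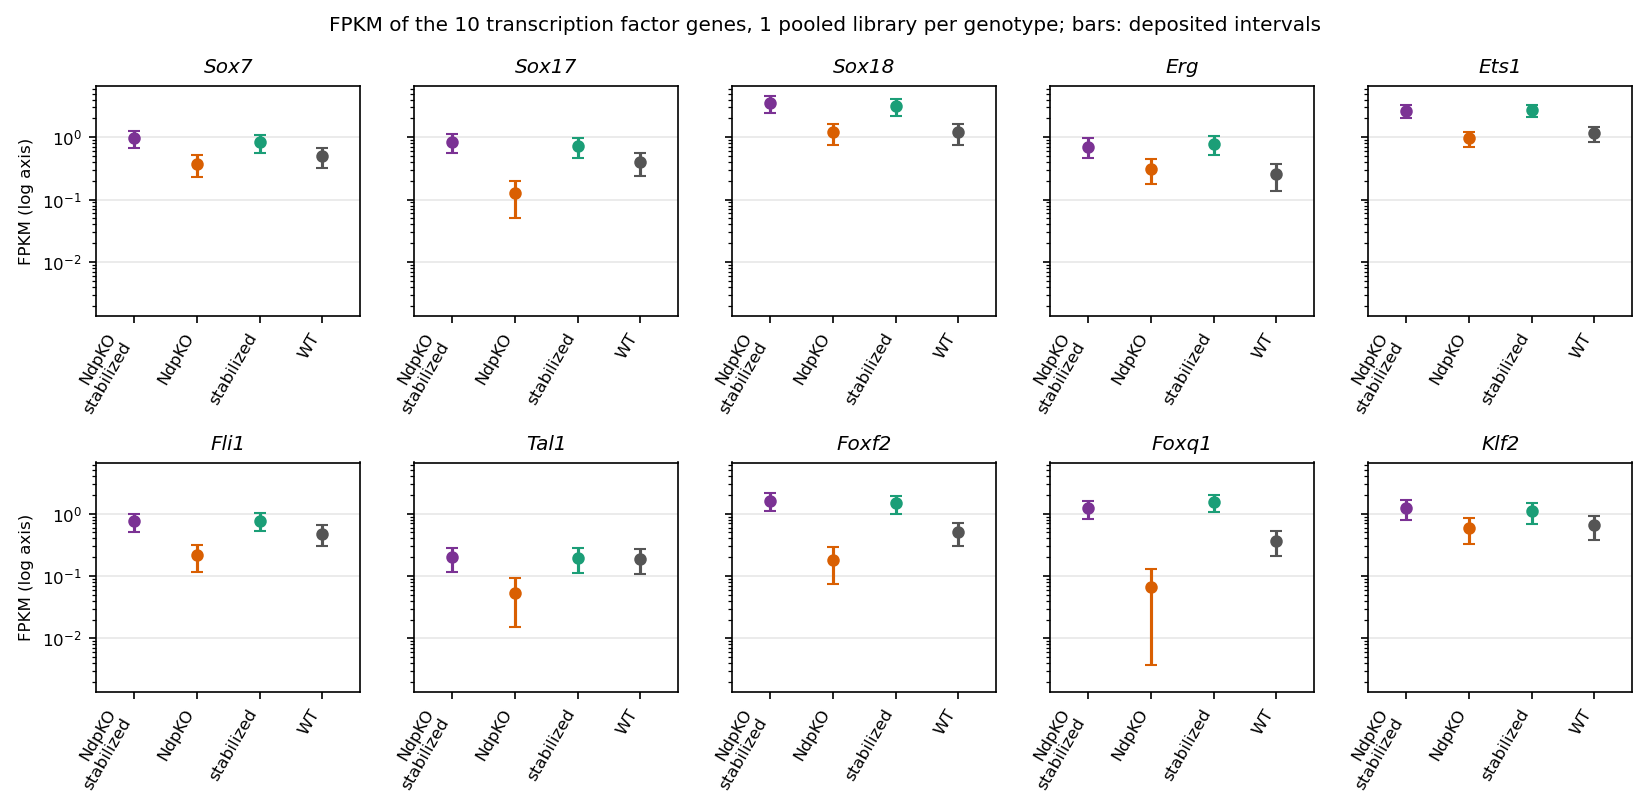
FPKM (log axis) of each of the 10 genes in the NdpKO stabilized, NdpKO, stabilized and WT libraries. Points are single pooled libraries and bars the deposited intervals. Foxq1 spans the widest range, from 0.0662 FPKM in NdpKO to 1.52 FPKM in stabilized, while Tal1 in WT (0.190) sits at the level of both stabilized libraries (0.201 and 0.194).

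In stabilized over WT the ratios of deposited FPKM ran from 1.03 to 4.15, and 5 of the 10 genes had intervals apart while 5 overlapped, where 1.93% of the 16394 genes at or above 0.1 FPKM were higher with intervals apart. In NdpKO stabilized over NdpKO they ran from 2.10 to 18.4, and 9 had intervals apart while Klf2 overlapped, where 1.84% of those genes were. In NdpKO over WT the ratio was below 1 for 9 of the 10, Erg being the exception, with Sox18 at 0.995. The median ratio of all genes at or above 0.1 FPKM was 0.983. Of the 9, 4 had intervals apart while 6 of the 10 genes overlapped, where 0.451% of all those genes were lower with intervals apart. The libraries NdpKO stabilized and stabilized lay close together, with ratios from 0.801 to 1.18. These comparisons share libraries, so the ratios are not independent of each other. Because the retinas were taken whole, fewer endothelial cells and less RNA per endothelial cell cannot be told apart.

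Among the SoxF genes, Sox17 stood lowest in NdpKO. Sox17 (chromosome 1, 4490927 to 4496413, mm10) was at 0.832 FPKM in NdpKO stabilized (interval 0.555 to 1.11), 0.126 in NdpKO (0.0507 to 0.201), 0.711 in stabilized (0.464 to 0.958) and 0.399 FPKM in WT (0.240 to 0.558). The NdpKO interval lies below those of all other libraries. Sox17 was thus 0.315 times as high in NdpKO as in WT and 6.62 times as high in NdpKO stabilized as in NdpKO. The opposite interval bounds allow ratios of 0.0909 to 0.838 and of 2.76 to 21.9. The intervals of stabilized and WT overlapped, at a ratio of 1.78.

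Sox18 (chromosome 2, 181669836 to 181671640) was the most abundant of the 10 genes. It was at 3.48 FPKM in NdpKO stabilized (2.46 to 4.50), 1.19 in NdpKO (0.742 to 1.64), 3.14 in stabilized (2.19 to 4.09) and 1.20 FPKM in WT (0.756 to 1.64). Both libraries with stabilized beta-catenin were high and the other 2 were level with each other, unlike those of Sox17. Its ratio was 2.92 for NdpKO stabilized over NdpKO, 2.62 for stabilized over WT and 0.995 for NdpKO over WT.

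Sox7 (chromosome 14, 63943705 to 63950732) was at 0.971 FPKM in NdpKO stabilized, 0.372 in NdpKO, 0.825 in stabilized and 0.50 FPKM in WT. Its intervals were apart between NdpKO stabilized and NdpKO, at a ratio of 2.61 with opposite bounds of 1.31 to 5.53. They overlapped between stabilized and WT (1.65) and between NdpKO and WT (0.744). Among the SoxF genes, only Sox18 was clear of WT in stabilized, and only Sox17 was clear of WT in NdpKO.

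The ETS genes differed in which comparisons had intervals apart. Ets1 (chromosome 9, 32696041 to 32757820), a founding member of the ETS family, was at 2.63 FPKM in NdpKO stabilized (2.03 to 3.24), 0.956 in NdpKO (0.688 to 1.22), 2.71 in stabilized (2.14 to 3.27) and 1.15 FPKM in WT (0.849 to 1.46). Its values in the 2 stabilized libraries were apart from those of the other 2, at 2.76 times NdpKO and 2.35 times WT. Ets1 in NdpKO was 0.827 times WT with overlapping intervals.

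Erg (chromosome 16, 95360203 to 95530365), a factor that sustains endothelial identity and junctions, was at 0.707 FPKM in NdpKO stabilized (0.458 to 0.956), 0.312 in NdpKO (0.176 to 0.447), 0.790 in stabilized (0.517 to 1.06) and 0.252 FPKM in WT (0.138 to 0.367). Erg alone of the 10 was not below WT in NdpKO, at a ratio of 1.23 with overlapping intervals. It was 3.13 times as high in stabilized as in WT. In NdpKO stabilized it was 2.27 times NdpKO, where the intervals cleared each other only just, with a lowest ratio of 1.02.

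Fli1 (chromosome 9, 32422207 to 32541368), the closest relative of Erg, was at 0.749 FPKM in NdpKO stabilized (0.502 to 0.996), 0.214 in NdpKO (0.118 to 0.311), 0.777 in stabilized (0.523 to 1.03) and 0.481 FPKM in WT (0.304 to 0.657). Its NdpKO value was 0.446 times WT, and these intervals overlapped slightly. Only NdpKO stabilized over NdpKO had intervals apart, at a ratio of 3.50. Fli1 and Ets1 lie on the same chromosome with 155 kb between their deposited loci, and their NdpKO values differ in distance from WT (0.446 and 0.827 times), a difference that was not tested.

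The forkhead genes had the highest ratios of the 10 in NdpKO stabilized over NdpKO. Foxq1 (chromosome 13, 31558169 to 31560974) was at 1.22 FPKM in NdpKO stabilized (0.823 to 1.61), 0.0662 in NdpKO (0.00373 to 0.129), 1.52 in stabilized (1.05 to 1.99) and 0.366 FPKM in WT (0.208 to 0.524). The libraries fall into 3 levels with no overlap between them: NdpKO lowest, then WT, then both stabilized libraries. Foxq1 was 0.181 times as high in NdpKO as in WT, with opposite bounds of 0.00712 to 0.618. It was 4.15 times as high in stabilized as in WT, with opposite bounds of 2.00 to 9.57. In NdpKO stabilized it was 18.4 times NdpKO, with bounds of 6.4 to 432, and the wide upper bound comes from an NdpKO value near 0. GENCODE M21 places A530084C06Rik on the opposite strand at this locus, and its reads cannot be told apart from those of Foxq1.

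Foxf2 (chromosome 13, 31625815 to 31631406) lies 64.8 kb from Foxq1 and had the same 3 levels. It was at 1.61 FPKM in NdpKO stabilized (1.11 to 2.11), 0.184 in NdpKO (0.0741 to 0.294), 1.48 in stabilized (1.00 to 1.95) and 0.507 FPKM in WT (0.300 to 0.713). The NdpKO and WT intervals were apart by a narrow margin, at a ratio of 0.363 with bounds of 0.104 to 0.978. Foxf2 was 2.92 times as high in stabilized as in WT and 8.77 times as high in NdpKO stabilized as in NdpKO. Another forkhead gene, Foxc1, was at 0.365 FPKM in NdpKO stabilized, 0.10 in NdpKO, 0.491 in stabilized and 0.220 FPKM in WT, with intervals apart only for NdpKO stabilized over NdpKO of the 5 comparisons. The gene 1700018A04Rik, near Foxq1 and Foxf2 in the deposited table, was below 0.05 FPKM in all libraries.

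RefSeq promoter windows (GRCm38.p6, the mm10 assembly) were found for Erg, Tal1, Foxf2 and Klf2, 7 windows in all. The 250 bases before each start were searched on both strands for 1 fixed string per family. These were CTTTGA for TCF/LEF, CCGGAA for ETS and AACAAT for SOX, which occur in 13.8%, 12% and 9.42% of all such windows. The Foxf2 window is shown because Foxf2 had the highest ratio in NdpKO stabilized over NdpKO among genes with a window. It holds none of these strings, is 71.6% G and C, and is printed without capitals. The Klf2 window (71.2% G and C) holds none either, and of the 3 Erg windows 1 holds a SOX match. Other forms of these sites were not searched for, such as GGAA without CC before it, which the Foxf2 window holds. Such matches describe letters and not binding.
Foxf2, chr13:31625566-31625815, plus strand: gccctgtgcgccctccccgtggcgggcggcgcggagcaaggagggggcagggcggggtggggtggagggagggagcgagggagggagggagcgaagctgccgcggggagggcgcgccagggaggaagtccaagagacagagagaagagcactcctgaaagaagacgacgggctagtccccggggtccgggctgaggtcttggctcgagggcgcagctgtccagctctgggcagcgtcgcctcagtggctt

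Foxf2 is also a gene of pericytes, the mural cells that surround capillaries. The 12 mural cell markers summed to 44.7 FPKM in NdpKO stabilized, 20.6 in NdpKO, 46.2 in stabilized and 28.4 FPKM in WT, with none of them at 0 in all libraries. With intervals apart, 11 of these markers were higher in NdpKO stabilized than in NdpKO, where 1.84% of all genes were. In stabilized over WT 9 were higher, where 1.93% of all genes were. Only Rgs5 was lower in NdpKO than in WT, where 0.451% of all genes were. The part of mural cells in the Foxf2 values was not tested.

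Tal1 (chromosome 4, 115059526 to 115071755) had the stabilized over WT ratio nearest to 1 among the genes described here. It was at 0.201 FPKM in NdpKO stabilized (0.116 to 0.286), 0.0541 in NdpKO (0.0155 to 0.0927), 0.194 in stabilized (0.112 to 0.277) and 0.190 FPKM in WT (0.109 to 0.270). Only NdpKO was low, and the remaining libraries were level. The ratio was 0.285 for NdpKO over WT, 3.72 for NdpKO stabilized over NdpKO and 1.03 for stabilized over WT. The last ratio has opposite bounds of 0.414 to 2.55. These include the ratios of Sox7 (1.65), Sox17 (1.78), Ets1 (2.35), Fli1 (1.62) and Klf2 (1.68). For Sox17 too, NdpKO alone had an interval below those of the other libraries. Tal1 also acts in red cell precursors. The 13 erythroid genes and Tal1 partners in the table summed to 233 FPKM in NdpKO stabilized, 127 in NdpKO, 226 in stabilized and 136 FPKM in WT. Hba-a1, an alpha-globin gene, and Ldb1, a Tal1 partner that many cell types express, had the highest values among them. Gata1, the erythroid master regulator, was listed at 0 in all 4 libraries. A mean of at least 0.1 FPKM was reached by 9 of these genes. With intervals apart, Alas2, Hba-a1 and Hba-a2 were higher in stabilized than in WT, where 1.93% of all genes were. Hba-a1, Hba-a2 and Hbb-b1 were higher in NdpKO stabilized than in NdpKO, where 1.84% were. Hba-a2 was lower in NdpKO than in WT, where 0.451% were. Lmo2, an adaptor that bridges Tal1 to its partners, was at 5.77, 4.45, 5.43 and 5.54 FPKM in NdpKO stabilized, NdpKO, stabilized and WT, with overlapping intervals. The part of erythroid RNA in the Tal1 values was not tested.

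Of the 2 Tal1 windows, the upstream one is shown for its TCF/LEF match, in capitals, in a gene whose levels in stabilized and WT were close.
Tal1, chr4:115056176-115056425, plus strand: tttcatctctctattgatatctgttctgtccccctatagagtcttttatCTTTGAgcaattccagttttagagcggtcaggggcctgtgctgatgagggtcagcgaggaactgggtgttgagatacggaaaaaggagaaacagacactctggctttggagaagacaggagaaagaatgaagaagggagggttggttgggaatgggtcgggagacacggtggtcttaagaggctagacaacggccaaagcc

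Klf2 (chromosome 8, 72319061 to 72321654) was at 1.24 FPKM in NdpKO stabilized (0.791 to 1.68), 0.587 in NdpKO (0.329 to 0.846), 1.09 in stabilized (0.680 to 1.5) and 0.650 FPKM in WT (0.377 to 0.922). Its intervals overlapped in every comparison. The ratios were 2.10 for NdpKO stabilized over NdpKO, 1.68 for stabilized over WT and 0.904 for NdpKO over WT. A list of 6 flow-responsive genes linked to Klf2, not all in the same direction, was also compared. Thbd (thrombomodulin) and Tek (the angiopoietin receptor) were higher in NdpKO stabilized than in NdpKO with intervals apart. Tek was also higher in stabilized than in WT. Nos3, the endothelial nitric oxide synthase, was at 2.19, 1.86, 2.12 and 1.27 FPKM in NdpKO stabilized, NdpKO, stabilized and WT. Its intervals were apart only between NdpKO stabilized and WT.

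**Figure D2:**
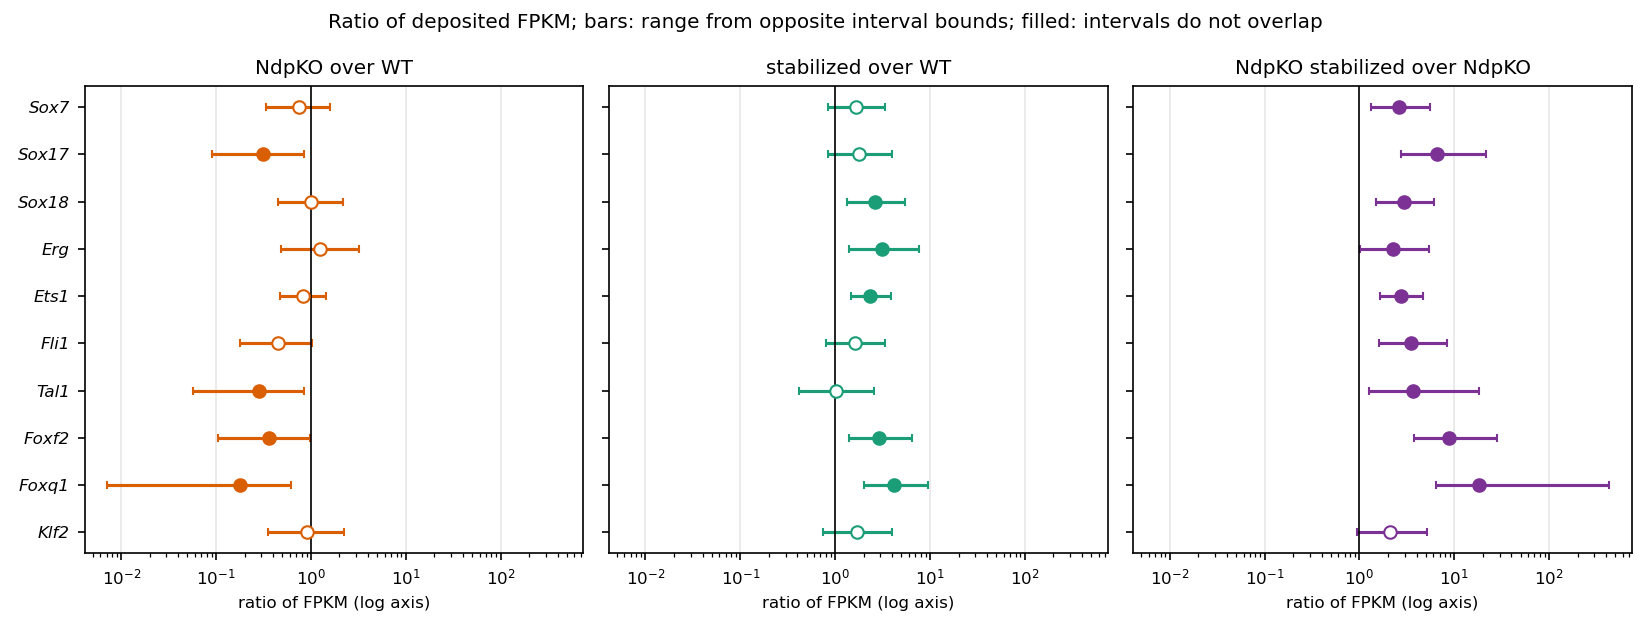
Ratio of deposited FPKM (log axis) for NdpKO over WT, stabilized over WT and NdpKO stabilized over NdpKO. Points are ratios of single libraries, bars run between the ratios of opposite interval bounds, and filled points mark intervals that do not overlap. The left panel has 4 filled points, the middle 5 and the right 9, and the vertical line marks equal values.

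The knockout against WT asks what the loss of Norrin does with beta-catenin unmodified. Sox17, Tal1, Foxf2 and Foxq1 were lower in NdpKO than in WT with intervals apart, and none of the 10 was higher. Over all 16394 genes with a mean of at least 0.1 FPKM, 0.451% were lower with intervals apart. The median ratio was 0.595 over the 10 genes and 0.983 over all those genes. By the 1.5-fold rule neither Sox18 (log2 ratio -0.00) nor Ets1 (-0.19) was apart, against 2.18% of the 13150 genes tested in either direction. Of 16 endothelial genes that are not transcription factors, 0 were lower and only Cdh5 was higher with intervals apart. Cldn5, the claudin-5 gene of tight junctions, was at 0.675 FPKM in NdpKO and 6.91 FPKM in WT.

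The stabilized library against WT asks what beta-catenin activation in endothelium does with Norrin present. Sox18, Erg, Ets1, Foxf2 and Foxq1 were higher with intervals apart and none of the 10 was lower, where 1.93% of all genes were higher. The median ratio was 2.06 over the 10 genes and 0.989 over all genes. Both genes open to the 1.5-fold rule passed it upward, Sox18 at a log2 ratio of 1.10 and Ets1 at 0.96, where 1.67% of tested genes did. Sox7, Sox17, Fli1, Tal1 and Klf2 overlapped WT. In the same pair of libraries 9 of the 16 endothelial genes were higher, among them Pecam1 at 4.12 FPKM in stabilized and 1.93 FPKM in WT.

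The NdpKO stabilized library against NdpKO sets the same activation in retinas without Norrin. All genes but Klf2, 9 of 10, were higher with intervals apart, where 1.84% of all genes were. The median ratio was 3.21 over the 10 genes and 1.03 over all genes. Sox18 (log2 ratio 1.23) and Ets1 (1.11) both passed 1.5-fold upward, where 1.76% of tested genes did. Of the 16 endothelial genes, 12 were higher, including Tie1 at 2.85 FPKM in NdpKO stabilized and 0.643 FPKM in NdpKO.

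The stabilization ratio was larger without Ndp than with it for 9 of the 10 genes, Erg being the exception. The share of all genes with a larger ratio without Ndp was not counted. Their median stabilization ratio was 1.03 without Ndp and 0.989 with it. The difference between the log2 ratios of deposited FPKM ran from -0.46 for Erg to 2.15 for Foxq1, with Sox17 at 1.89, Tal1 at 1.86 and Foxf2 at 1.59. For Sox18 (0.16), Ets1 (0.23) and Klf2 (0.33) it was small. The 4 genes with large values are those that were low in NdpKO, which enters the ratio. With 1 library in each cell of the design this difference was not tested.

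NdpKO stabilized against WT asks how near to WT the activated knockout comes. Sox18 (2.90 times), Erg (2.80), Ets1 (2.28), Foxf2 (3.18) and Foxq1 (3.32) were above WT with intervals apart, the same 5 genes as for stabilized over WT in comparisons that share the WT library. Over all genes 2.15% were higher. Sox18 (log2 ratio 1.23) and Ets1 (0.92) passed 1.5-fold, where 1.79% of tested genes did. Sox7 and Sox17 missed by little, with lowest ratios of 0.995 each. Tal1 was 1.06 times WT.

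NdpKO stabilized against stabilized asks whether the presence of Ndp alters the levels once beta-catenin is stabilized. None of the 10 had intervals apart, where 0.756% of all genes did, and neither Sox18 nor Ets1 was 1.5-fold apart, where 1.67% of tested genes were. The lowest ratio was that of Foxq1, 0.801 with bounds of 0.413 to 1.54. The highest was that of Sox7, 1.18 with bounds of 0.620 to 2.25. Differences smaller than these bounds were not detectable here.

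Both stabilization comparisons were also combined in an additive limma fit over the 4 libraries, in which the 2 pairs stand in for replicates and their difference is the only estimate of spread. The fit has 1 residual degree of freedom per gene, moderated over 13150 genes, and takes any interaction as noise. For stabilization, 0.144% of genes passed an adjusted p of 0.05 and 2112 had an unadjusted p under 0.05. Sox18 had a limma log2 effect of 1.17 ± 0.11 (SE, adjusted p = 0.122) and Ets1 one of 1.03 ± 0.12 (SE, adjusted p = 0.168). Both were higher in 2 of 2 pairs with unadjusted p of 0.000389 and 0.00089, and neither passed after adjustment. With a minimum mean of 0.5 FPKM, 9 of the 10 genes entered, and the limma effects ran from 0.57 ± 0.13 for Klf2 (adjusted p = 0.244) to 1.41 ± 0.16 for Foxq1 (SE, adjusted p = 0.144), none past the threshold. For Ndp loss, 0.137% of genes passed in limma, 514 had an unadjusted p under 0.05, and neither Sox18 nor Ets1 was among them (adjusted p of 0.994 and 0.993).

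The endothelial RNA in the same libraries gives a scale for these ratios. The geometric mean of FPKM plus 0.5 over the 16 endothelial genes was 3.94 in NdpKO stabilized, 2.24 in NdpKO, 3.65 in stabilized and 2.31 in WT. It was thus 1.76 times as high in NdpKO stabilized as in NdpKO, 1.58 times as high in stabilized as in WT, and 0.968 times as high in NdpKO as in WT. Several of these genes are known to be bound by ETS or SoxF factors, so the scale is not independent of the factors. The 11 microglia and leukocyte markers, cells that also express Fli1 and Ets1, summed to 52.0 FPKM in NdpKO stabilized, 44.5 in NdpKO, 44.9 in stabilized and 50.5 FPKM in WT, and none had intervals apart in any comparison.

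Set against that endothelial mean at a pseudocount of 0.5, the SoxF and ETS genes did not share 1 direction. In stabilized over WT, the log2 ratio relative to the endothelial mean was 0.44 for Sox18, 0.30 for Ets1, 0.56 for Foxq1 and 0.32 for Foxf2. It was -0.25 for Sox7, -0.23 for Sox17, -0.28 for Fli1 and -0.19 for Klf2. Erg was at 0.12, and Tal1 was farthest from the mean at -0.65. In NdpKO stabilized over NdpKO it was 0.42 for Sox18, 0.29 for Ets1, 0.79 for Foxq1, 0.81 for Foxf2 and 0.28 for Sox17. It was -0.48 for Tal1, -0.24 for Erg, -0.14 for Klf2, -0.06 for Sox7 and -0.01 for Fli1 in that pair. In both pairs the ratios of Sox18, Ets1 and the forkhead genes thus exceeded that of the endothelial mean, but not those of all endothelial genes. Single endothelial genes had log2 ratios from -0.36 (Emcn) to 1.39 (Cdh5) in stabilized over WT. In NdpKO stabilized over NdpKO they ran from -0.30 (Emcn) to 1.73 (Cd93). Sox18, Ets1, Foxf2 and Foxq1 lay within these ranges. In NdpKO over WT, Foxq1 (-0.57), Foxf2 (-0.51), Sox17 (-0.48) and Fli1 (-0.41) were lowest, while Sox18 (0.04) and Klf2 (-0.03) were level with it. These values shrink with the pseudocount for low genes. At 0.1 in place of 0.5 the NdpKO over WT values were -1.42 for Foxq1, -1.03 for Foxf2, -1.07 for Sox17 and -0.84 for Tal1. With pseudocounts between 0.1 and 1, the sign depended on the pseudocount for Erg in stabilized over WT (0.51 at 0.1 and -0.02 at 1). It did so too in NdpKO stabilized over NdpKO for Fli1 (0.41 at 0.1 and -0.14 at 1) and Sox7 (0.16 at 0.1 and -0.15 at 1). In that pair Tal1 moved from -0.48 to -0.05 at 0.1. With no pseudocount on the gene itself, and 0.5 kept in the endothelial mean, Tal1 was at 1.08. Erg (0.37) and Klf2 (0.26) were then above 0 too. On that measure in stabilized over WT, Sox7 (0.06), Sox17 (0.18), Fli1 (0.04) and Klf2 (0.09) were above 0. Tal1 stayed below 0 there, at -0.62. Except for Tal1 in stabilized over WT, whether these genes rose less than the endothelial mean thus depends on the pseudocount.

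**Figure D3:**
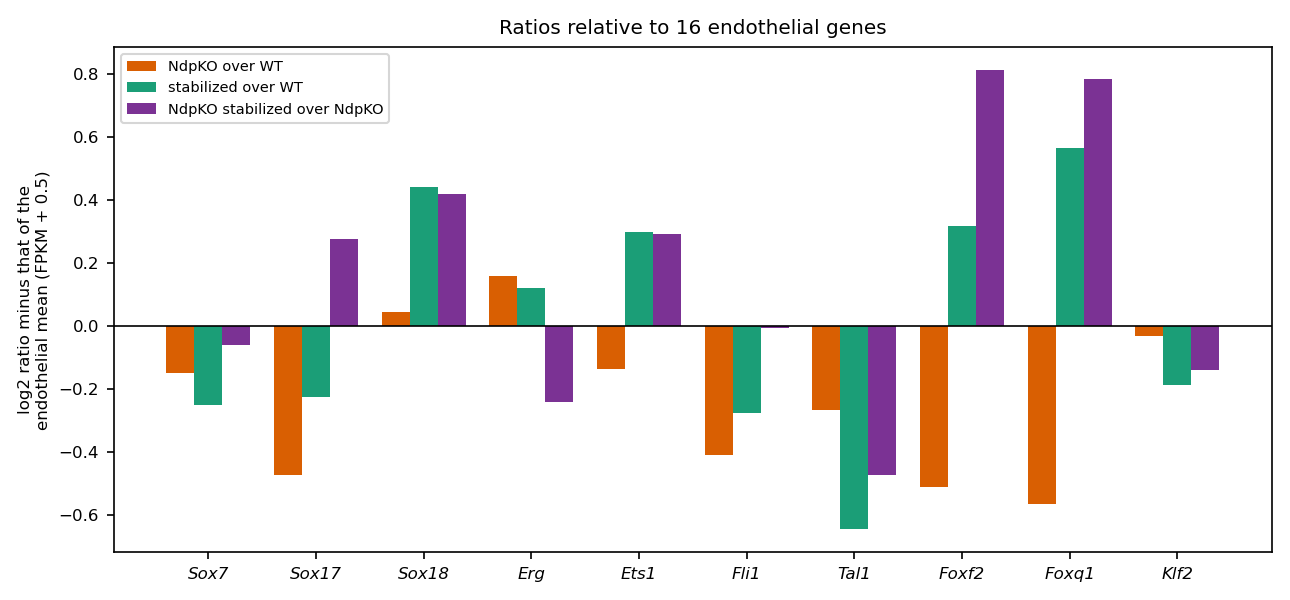
Log2 ratio of FPKM plus 0.5 of each gene minus the log2 ratio of the geometric mean of 16 endothelial genes, for NdpKO over WT, stabilized over WT and NdpKO stabilized over NdpKO. Bars are single values from pairs of libraries with no error. Foxq1 and Foxf2 are below 0 without Ndp (-0.57 and -0.51) and highest on stabilization of NdpKO (0.79 and 0.81).

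The same protein families hold many genes that are expressed outside vessels, and these show how far the pattern extended. The other ETS, SOX, forkhead and KLF genes with a mean of at least 0.1 FPKM numbered 64. With intervals apart, 2 of the 64 were higher in stabilized than in WT (Sox10 and Foxl2), where 1.93% of all genes were. In the same pair 3 were lower (Sox30, Ehf and Klf9). The share of all genes that were lower by intervals was not counted for the 2 stabilization comparisons. In NdpKO stabilized over NdpKO, 2 were higher (Foxc1 and Foxl2), where 1.84% of all genes were, and 1 was lower (Sox30). By the 1.5-fold rule, the ETS family had 1 of 14 tested genes higher in stabilized than in WT, which was Ets1, and the SOX family 1 of 11, Sox18. The forkhead (11 tested) and KLF (10 tested) families had none. In NdpKO stabilized over NdpKO the ETS family had 2 of 14 higher, Ets1 and Etv4 (log2 ratio 0.59, intervals overlapping), and the SOX family 1 of 11. No tested gene of the 4 families was 1.5-fold lower in either comparison, where 1.71% and 0.92% of all tested genes were. The family medians in stabilized over WT were -0.01 for ETS, 0.15 for SOX, 0.04 for forkhead and -0.10 for KLF, beside -0.02 for all tested genes. Abundant family members such as Elf2 (22.8 FPKM in NdpKO stabilized and 22.8 in NdpKO) and Sox4 (67.5 and 57.7 FPKM) had overlapping intervals.

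**Figure D4:**
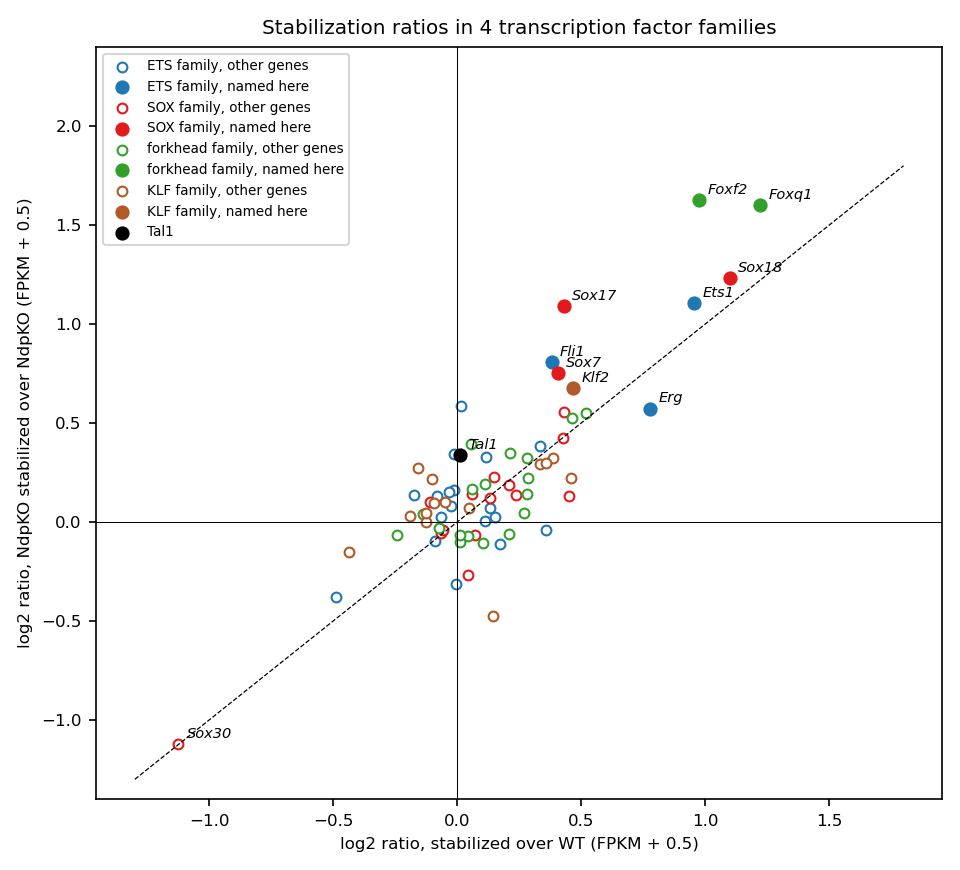
Log2 ratio of FPKM plus 0.5 for stabilized over WT (x axis) and NdpKO stabilized over NdpKO (y axis) for ETS, SOX, forkhead and KLF genes with a mean of at least 0.1 FPKM, with Tal1 added. Filled points are the 10 genes described here, and the dashed line marks equal ratios. Foxq1 (1.22 and 1.60) and Foxf2 (0.97 and 1.63) lie at the upper right, away from most other family members, and Sox30 lies at the lower left (-1.13 and -1.12).

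Of the other regulators known from endothelium, 19 had a mean of at least 0.1 FPKM. Gata2, Epas1 and Tcf7 were higher in stabilized than in WT with intervals apart, where 1.93% of all genes were. Epas1, Bcl6b, Lef1 and Tcf7 were higher in NdpKO stabilized than in NdpKO, where 1.84% of all genes were, and Id1 was lower. Epas1, a hypoxia-inducible factor, was at 10.7 FPKM in NdpKO stabilized, 7.89 in NdpKO, 8.93 in stabilized and 6.13 FPKM in WT. Tcf7, a nuclear partner of beta-catenin, was at 1.28, 0.591, 1.54 and 0.707 FPKM in the same order. Id1, a helix-loop-helix inhibitor driven by BMP signals, was at 17.1 FPKM in NdpKO stabilized and 31.1 FPKM in NdpKO. Lymphatic and neuronal Prox1 and the venous factor Nr2f2 had overlapping intervals throughout, and Nr2f2 is abundant in retinal neurons too.

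Most of 18 genes known to be bound or driven by ETS or SoxF factors in endothelium are also among the 16 endothelial genes above. Their counts are therefore not separate from those given before. With intervals apart, 10 of the 18 were higher in stabilized than in WT, where 1.93% of all genes were. In NdpKO stabilized over NdpKO 10 were higher, where 1.84% of all genes were, and 8 were higher in both comparisons. These 8 were Cdh5, Tie1, Tek, Eng, Pecam1, Cldn5, Robo4 and Vwf. Vwf, the gene of von Willebrand factor, was at 0.806 FPKM in NdpKO stabilized, 0.107 in NdpKO, 1.25 in stabilized and 0.179 FPKM in WT. In NdpKO against WT, 1 of the 18 was lower (Cldn5) and 1 higher (Cdh5, 1.36 FPKM in NdpKO and 0.754 FPKM in WT). Kdr, Emcn, Vcam1 and Angpt2 had overlapping intervals in all comparisons. Kdr is also expressed by retinal neurons and was far more abundant, at 45.7, 39.9, 47.7 and 39.0 FPKM in NdpKO stabilized, NdpKO, stabilized and WT.

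The genes most like the SoxF mean profile were sought by the Euclidean distance of centred log2 values over the 4 libraries. The nearest 6 were Beta-s (distance 0.054), Ly6c1 (0.073), Slc40a1, Sfrp4, Slco2b1 and Cnn2 (0.109), beside a median distance of 0.853 over all genes considered. Beta-s, a beta-globin gene, was at 70.1 FPKM in NdpKO stabilized, 35.5 in NdpKO, 65.6 in stabilized and 40.3 FPKM in WT. For the ETS mean profile the nearest were Sfrp4 (0.107), Tcf7 (0.110), Slc40a1, Beta-s, Srebf1 and Ubtd2 (0.132). Over 4 libraries likeness is only a description.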

How the data were processed

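The authors deposited 1 table with FPKM and a lower and upper interval bound, also as FPKM, per gene and library. TopHat, Cuffdiff and mm10 are named in the submitters' processing notes, and the sources used here give no versions, annotation, depth or interval level. No strand setting is stated, so reads of Sox17, Ets1, Fli1, Foxf2 and Foxq1 cannot be told apart from those of genes that GENCODE M21 places on the opposite strand of each. No other gene of the table shares a deposited locus with any of the 10. Library RNA was pooled before sequencing, so no values have a spread between animals.

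Columns were matched to libraries by the number in the sample description. Genes with status OK in each library and a mean of at least 1 FPKM (13150 genes) entered ratio calls at 1.5-fold on log2 of FPKM plus 0.5. Bounds of a ratio were taken from opposite interval bounds. The interval rule with a minimum of 0.1 FPKM (16394 genes) was chosen after seeing the data, because 8 of the 10 genes fall below 1 FPKM. limma 3.58.1 in R 4.3.3 fitted stabilization and Ndp state additively with an intensity trend and Benjamini-Hochberg adjustment over all genes. The limma fit was tested on simulated data. Python 3.11.15, numpy 2.4.6, pandas 2.3.3 and matplotlib 3.10.9 were used.

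The 10 genes and the 12 gene lists were chosen with earlier results of these data known. Named genes are the 10, up to 4 genes a direction from each list with the widest log2 ratio among those called at 1.5-fold or by limma, Ndp, Ctnnb1, Pdgfb and Cldn5 as genotype checks, Xist and Ddx3y as sex checks, and the 6 genes nearest to each mean profile. Genes named for their intervals, or with overlapping intervals, were chosen after their values were seen. Spi1, Foxf1, Hbb-bt and Hbb-bs were not analysed here.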

Additional observations from a re-analysis of the deposited data

How the results depend on the processing

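The number of the 10 genes called depended on the minimum level, since only Sox18 and Ets1 had a mean of at least 1 FPKM. With a minimum of 0.5 FPKM, and likewise with none, 1 gene was 1.5-fold lower in NdpKO than in WT, against 0 with the minimum of 1 FPKM. Under the same settings 5 genes were higher in stabilized than in WT, 8 in NdpKO stabilized than in NdpKO, and 6 in NdpKO stabilized than in WT, against 2 in each. By intervals with a minimum of 0.1 FPKM these counts were 4 lower in NdpKO than in WT, then 5, 9 and 5 higher. Without a pseudocount at that minimum they were 5 lower, then 9, 10 and 9 higher. These last settings were chosen after seeing the data. The share of all genes was counted for the 1 FPKM minimum and for intervals, but not for the other settings. Counts under the other settings thus have no background beside them. Pseudocounts of 0.1 and 1, re-centring, rescaling to the same total and intervals in place of 1.5-fold left every count with the 1 FPKM minimum as it was. No gene of the 10 was called by limma under any setting, and the adjusted p of Sox18 for stabilization ran from 0.0887 to 0.451 over 7 alternatives and that of Ets1 from 0.123 to 0.451. With no minimum mean limma called 0 of all genes. No log2 ratio of the 10 genes that was at least 1.5-fold reversed. Of the values of single genes under alternatives, 227 kept within their limits and 8 did not, all of them relative to the endothelial mean at a pseudocount of 0.1. For plain ratios the limits were the ratios of opposite interval bounds. For values relative to the endothelial mean, the shift had to be smaller than the summed log2 half-widths of the gene's intervals in both libraries. Plain ratios of the 8 genes below 1 FPKM were not recomputed at other pseudocounts. No paired analysis was possible because each genotype has 1 library and the labels give no replicate numbers. Low levels and unknown depth limit all values. The sources used here do not state what spread the intervals cover, and no genotype has a replicate library from which to judge it.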

Other observations

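Sox30, a SOX gene best known from male germ cells, had ratios below 1 where those of the SoxF genes were above 1. It was at 0.356 FPKM in NdpKO stabilized, 1.36 in NdpKO, 0.195 in stabilized and 1.02 FPKM in WT, with intervals apart in both stabilization comparisons. Foxl2, a forkhead gene known from ovary and from mesenchyme around the eye, was at 0.232 FPKM in NdpKO stabilized, listed at 0 in NdpKO, at 0.308 in stabilized and at 0.0646 FPKM in WT. Both genes were singled out after their values were seen, and neither passed the minimum mean of 1 FPKM. Klf9 was at 28.7 FPKM in stabilized and 39.1 FPKM in WT with intervals apart, and at 35.0 FPKM in NdpKO stabilized and 38.8 FPKM in NdpKO with overlapping intervals. Whether the effect on Klf9 differs between backgrounds was not tested.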
